A study of Mus musculus with 4 samples.

Results

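Arginine metabolism was followed through 6 genes, Arg1, Arg2, Nos2, Ass1, Slc7a2 and Odc1, which were chosen by symbol and were all found among the 31054 features of the gene table. Their transcripts were counted by single-cell RNA sequencing (scRNA-seq) in the stromal vascular fraction (SVF), the non-adipocyte cells, of gonadal adipose tissue from 18-month-old male mice of genotype p16-CreERT2/R26-LSL-tdTomato. Tamoxifen was given before the tissue was taken, after which cells with an active p16 promoter, which drives the Cre, turned on the red protein tdTomato. CD45, a leukocyte surface protein, and tdTomato were used to sort the cells into 4 groups, and series of 4 values are always given in the order CD45- Tom+, CD45- Tom-, then CD45+ Tom+, and last CD45+ Tom-. Series of 3 values leave out the library labelled CD45- Tom- unless stated otherwise. A group was a single library, and the sources used here do not say how many mice went into it. Differences therefore have no replicate check, no test was made, and what is compared are libraries and cell kinds within them.

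Arginine enters macrophages largely through the cationic amino acid transporter encoded by Slc7a2. Inside the cell it is split by arginase into ornithine and urea, or oxidized by the inducible nitric oxide synthase (Nos2) to nitric oxide and citrulline. Ornithine is turned into polyamines by ornithine decarboxylase (Odc1), whereas citrulline is recycled to arginine by argininosuccinate synthase (Ass1) and argininosuccinate lyase. Arg1 is widely used as a marker of alternatively activated (M2) macrophages in mice and Nos2 as a marker of classically activated (M1) macrophages, although both genes are also used by other cells.

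After filtering and the removal of marked doublets, 3886, 3674, 1927 and 4391 cells remained, with medians of 19041, 19364, 18331 and 19516 unique molecular identifiers (UMIs, each standing for 1 captured transcript) per cell. The tdTomato transcript followed the Tom labels, with levels of 713, 15.8, 714 and 18.7 CPM (the gene's UMIs divided by the total of the cells named, times 1000000). Ptprc, which encodes CD45, did not follow the CD45 labels, with levels of 217, 157, 223 and 188 CPM, so groups are called by the label of their library. Of the kept cells, 605, 1426, 220 and 1304 had a barcode that also occurred in another library, and for 27, 20, 5 and 28 of them that barcode was also kept there. Cells were grouped into 24 classes and clusters without using the 6 genes. Names ending in -like were rebuilt from marker transcripts. Values in brackets after a level or ratio are 95% intervals, exact but limited to counting error.

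Most macrophage-like cells fell into 3 kinds. Gpnmb macrophage-like cells (946 cells) were led by genes of lipid-handling macrophages, and Vsig4/Marco/Timd4 macrophage-like cells (397 cells) by genes of resident macrophages. The remaining kind (1105 cells) was called Car6/Olr1 macrophage-like after its 2 marker genes. Its leading genes were Arg1, Spp1, Olr1, Slc7a2 and Car6, in this order. It expressed the general macrophage markers, with Adgre1 at 342 CPM, Csf1r at 480 CPM and C1qa at 1591 CPM in the library labelled CD45- Tom+. Its name rests on 2 genes, Car6 at 104 and Olr1 at 401 CPM there, and the same cells also had 358 CPM of Gpnmb and 246 CPM of Vsig4. The kinds held 193, 362, 106 and 444 Car6/Olr1 cells, 176, 45, 108 and 68 Vsig4/Marco/Timd4 cells, and 390, 162, 180 and 214 Gpnmb cells. A kind was given a level in a library only from 50 cells on, which left out the 45 Vsig4/Marco/Timd4 cells of the library labelled CD45- Tom-. A further cluster of 142 cells led by Pf4 and Ms4a7 raised 8 of 8 macrophage markers but took none of the 3 kind names, and it had 11.7 CPM of Arg1 in the only library with enough cells (CD45- Tom+). Over its cells of all libraries Arg1 was at 55.7 CPM, with 70.0% of the UMIs in the top 2% of cells.

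The 2 arginases are encoded by separate genes. Arg1 (ENSMUSG00000019987, cytosolic arginase) lies on mm10 at chr10:24915221-24927484 on the minus strand with 8 exons, and Arg2 (ENSMUSG00000021125, mitochondrial arginase) at chr12:79130777-79156301 on the plus strand, also with 8 exons. Their coding sequences were compared over 90 bases of exon 7 around aspartate codons that bind the manganese of the active site. The stretches, from the GENCODE vM21 transcripts, are shown because the genes had different homes among these cells, and capitals mark the bases that differ. The Arg1 stretch lies at chr10:24916068-24916157 and the Arg2 stretch at chr12:79151929-79152018.
Arg1: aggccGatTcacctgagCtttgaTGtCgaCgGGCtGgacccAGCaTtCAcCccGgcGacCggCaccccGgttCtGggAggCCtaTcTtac
Arg2: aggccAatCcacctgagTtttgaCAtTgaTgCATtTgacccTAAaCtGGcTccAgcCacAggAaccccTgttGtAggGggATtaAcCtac
They shared 60 of 90 bases (66.7%), and 30 differed. Arg2 overlaps the opposite-strand genes Vti1b and Gm48780. The other genes lie at chr8:40862396-40922308 (Slc7a2, ENSMUSG00000031596, 11 exons), chr11:78920787-78960254 (Nos2, ENSMUSG00000020826, 27 exons), chr2:31470207-31520672 (Ass1, ENSMUSG00000076441, 16 exons) and chr12:17544794-17551505 (Odc1, ENSMUSG00000011179, 12 exons), all on the plus strand. The first bases of Slc7a2 overlap the opposite-strand gene Gm26584.

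**Figure D1:**
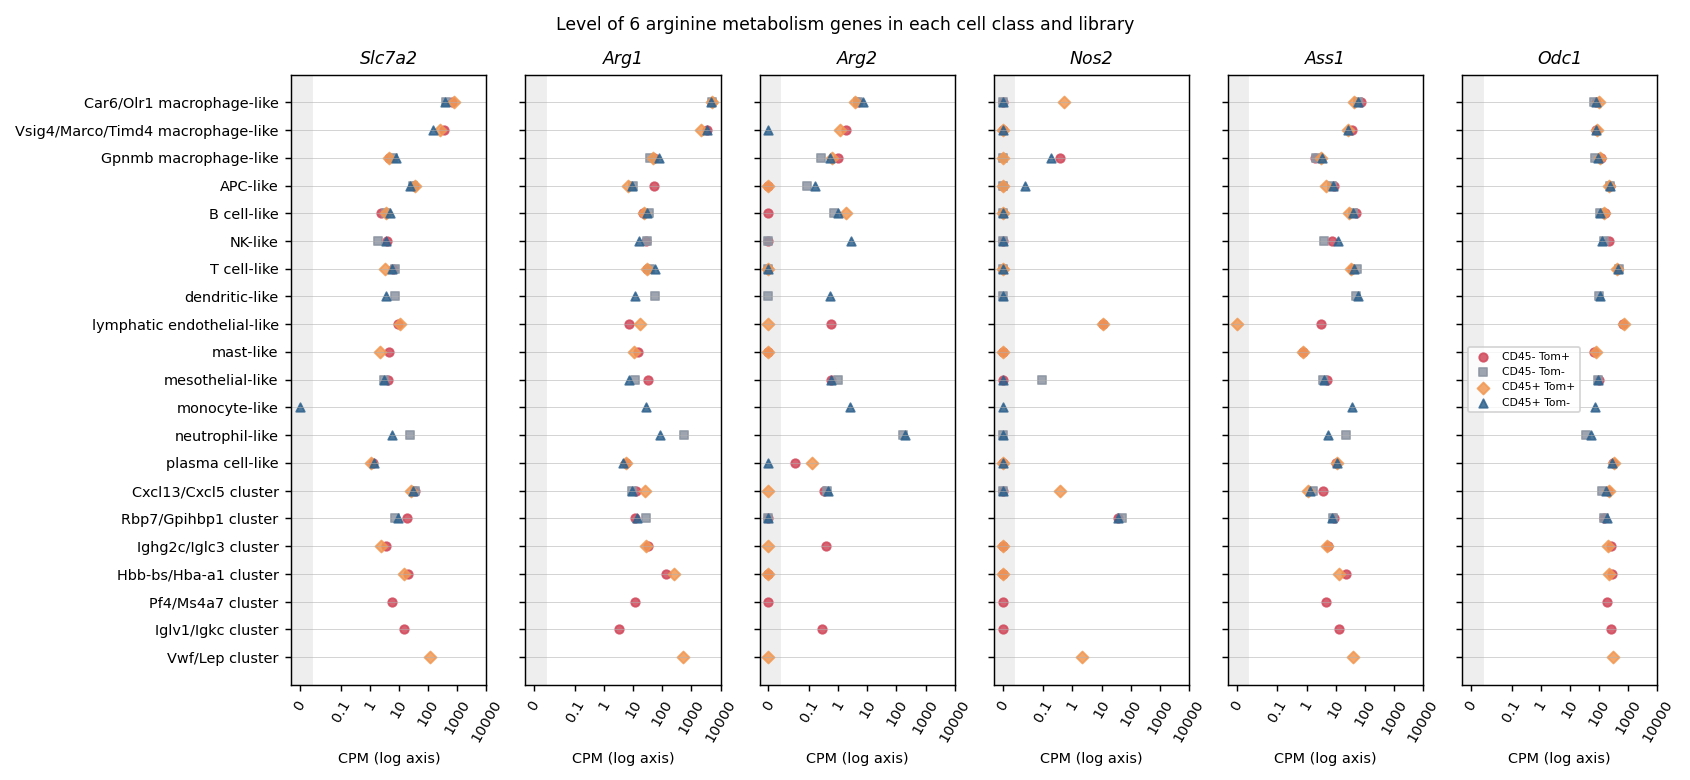
Level of each of the 6 genes (CPM, log axis, 1 panel per gene) in every class or cluster (rows) of at least 50 cells in a library, with 1 symbol per library and values of 0 drawn in the gray band. Arg1 and Slc7a2 were highest in the Car6/Olr1 and Vsig4/Marco/Timd4 macrophage-like cells, Arg2 in the neutrophil-like cells, Nos2 in the Rbp7/Gpihbp1 cluster, and Odc1 in the lymphatic endothelial-like and T cell-like cells.

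Slc7a2, the uptake transporter, was expressed mainly in 2 of the 3 macrophage-like kinds. Its level was 663, 423, 774 and 377 CPM in Car6/Olr1 cells. In Vsig4/Marco/Timd4 cells it was 357, 252 and 151 CPM in the 3 libraries with enough cells. In Gpnmb cells it was 4.63, 6.10, 4.62 and 7.87 CPM, which lies near the 2.40 to 4.75 CPM of B cell-like cells. Car6/Olr1 cells thus held 57.7%, 60.9%, 63.5% and 63.7% of all Slc7a2 UMIs of their libraries while making up 4.97%, 9.85%, 5.50% and 10.1% of the cells. Outside the macrophage-like cells, adipocyte progenitor cell (APC)-like cells had a lower level of 33.8, 29.1, 34.7 and 23.9 CPM. After each cell was thinned to 2000 UMIs, an Slc7a2 UMI was found in 4.56%, 5.03%, 8.33% and 4.62% of APC-like cells and in 0.51%, 0.48%, 0% and 1.35% of B cell-like cells, where the gene is not expected. Because APC-like cells were many in the Tom- libraries, they held 23.3% and 20.8% of the Slc7a2 UMIs there. The Cxcl13/Cxcl5 cluster had a similar level of 34.8, 34.7, 24.8 and 31.2 CPM.

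Arg1 showed the same order of kinds. Its level was 5284 CPM (5213 to 5355), 4983, 5082 and 4718 CPM in Car6/Olr1 cells. In Vsig4/Marco/Timd4 cells it was 3372, 2096 and 3342 CPM. In Gpnmb cells it was 52.0, 37.4, 48.2 and 76.9 CPM. No library of Gpnmb cells came near either other kind, and the levels of Car6/Olr1 cells lay above those of Vsig4/Marco/Timd4 cells in each of the 3 shared libraries.

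At equal depth, the share of Gpnmb cells with an Arg1 UMI lay near that of B cell-like cells. It lay above that of several other classes. Arg1 UMIs were found in 90.2%, 93.9%, 87.7% and 90.8% of Car6/Olr1 cells, and in 31.0%, 35.2%, 28.3% and 34.6% of Gpnmb cells. In B cell-like cells the share was 15.8%, 19.7%, 18.1% and 17.6%, at a median depth of 6506, 5295, 6347 and 5650 UMIs against 25753, 21859, 25493 and 23949 UMIs in Gpnmb cells. At 2000 UMIs per cell the share was 6.15%, 5.56%, 7.22% and 7.48% in Gpnmb cells and 7.14%, 8.21%, 6.94% and 6.42% in B cell-like cells. Over all libraries the thinned share was 6.55% in Gpnmb and 7.50% in T cell-like cells. It was 2.19% in APC-like, 2.03% in mesothelial-like and 1.78% in plasma cell-like cells. The Arg1 level over all libraries was 54.4 CPM in Gpnmb and 27.8 CPM in B cell-like cells. Of the UMIs in Gpnmb cells, 51.0% lay in the top 2% of cells. The thinned shares of Car6/Olr1 cells were 81.9%, 87.3%, 80.2% and 85.1%, and those of Vsig4/Marco/Timd4 cells 67.0%, 63.9% and 73.5%.

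Together the 2 Arg1-rich kinds held most Arg1 transcripts of each library. Car6/Olr1 cells held 61.6%, 87.2%, 64.5% and 85.9% of the Arg1 UMIs of their libraries. Vsig4/Marco/Timd4 cells held 31.4%, 24.4% and 8.52%. The border between these kinds moved with the cell filter. With a looser filter, from 500 genes on and up to 20% mitochondrial UMIs, 67.3% of the Vsig4/Marco/Timd4 cells joined the Car6/Olr1 kind. The Vsig4/Marco/Timd4 kind drawn under that filter kept 110 of the 397 cells and had 196 cells in all. In the Tom+ libraries (105 and 51 cells) it had Arg1 levels of 457 and 245 CPM and Slc7a2 levels of 61.1 and 16.7 CPM. Its Ass1 levels there were 5.45 and 5.15 CPM. Single cells also differed widely within a kind. Per 10000 UMIs of a cell, the median Car6/Olr1 cell had 35.4, 39.1, 35.4 and 35.9 Arg1 UMIs, the 10th percentile was 0.22, 2.01, 0 and 0.51, and the 90th percentile was 111, 110, 105 and 105. The median Vsig4/Marco/Timd4 cell had 15.4, 11.0 and 17.3.

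Arg1 was also counted outside the macrophage-like kinds, with much of it in few cells. The Hbb-bs/Hba-a1 cluster (214 cells), which raised 6 of 6 cycling-cell markers, had 358 CPM over all libraries, with a UMI in 37.9% of cells (13.7% after thinning) and 44.9% of the UMIs in the top 2% of cells. Neutrophil-like cells reached 573 CPM in the library labelled CD45- Tom- (86 cells) and 82.9 CPM in that labelled CD45+ Tom- (123 cells), but 68.3% and 68.9% of those UMIs came from the 2% of cells with the most. The APC-like cells of the library labelled CD45- Tom+ had 53.1 CPM against 6.64 to 9.58 CPM in the other libraries, with 85.3% of the UMIs in the top 2% of cells. Whether doublets or free RNA contributed to these values was not tested.

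Arg2, the mitochondrial arginase, was a transcript of neutrophil-like cells. Its level there was 173 CPM in the library labelled CD45- Tom- and 199 CPM in that labelled CD45+ Tom-, the libraries with enough of these cells, and an Arg2 UMI was found in 54.7% and 56.1% of them (38.4% and 34.1% after thinning). Neutrophil-like cells were 2.34% and 2.80% of the cells in these libraries and held 58.1% and 54.5% of the Arg2 UMIs. In Car6/Olr1 cells, where Arg1 was highest, the Arg2 level was 4.70, 4.89, 3.71 and 7.04 CPM. T cell-like cells had no Arg2 UMI in 969 cells, which allows a share of cells with a UMI of up to 0.38%.

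Nos2, the alternative consumer of arginine, was almost absent from macrophage-like cells. In Car6/Olr1 cells, 0, 0, 1 and 0 Nos2 UMIs were counted, and in Vsig4/Marco/Timd4 cells 0 in each library. Gpnmb cells had 4, 0, 0 and 1. The floor of 3 counts corresponds to 0.742, 0.474, 1.59 and 0.364 CPM in Car6/Olr1 cells, and a lower level was not detectable at this depth. Over all 4 libraries, Nos2 UMIs were found in 1 of 1105 Car6/Olr1 cells, 0 of 397 Vsig4/Marco/Timd4 cells and 3 of 946 Gpnmb cells.

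The gene was nonetheless detected in the same libraries, in vascular cells. The Rbp7/Gpihbp1 cluster (375 cells) had a Nos2 level of 35.6 (25.5 to 48.3), 51.0 (38.0 to 67.0) and 37.7 (28.1 to 49.6) CPM in the libraries with at least 50 of its cells, the one labelled CD45+ Tom+ having fewer. This cluster kept its leading genes as a name because it raised markers of both endothelial and mural cells, among them Cdh5 at 1715 CPM, Pecam1 at 1261 CPM and Rgs5 at 509 CPM over all libraries. Its 362 cells with more endothelial than mural marker UMIs had a Nos2 level of 42.8 CPM (36.6 to 49.7), with a UMI in 29.0% of them. The cluster held 48.8%, 98.1%, 60% and 94.4% of all Nos2 UMIs, and lymphatic endothelial-like cells held a further 46.4% and 34.0% in the 2 Tom+ libraries. Nos3, the endothelial nitric oxide synthase, was at 74.6 CPM in the Rbp7/Gpihbp1 cluster.

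Ass1, which recycles citrulline, followed Arg1 among the macrophage-like kinds but had levels of the same order in T cell-like, B cell-like and dendritic-like cells. Its level was 75.7, 57.8, 44.0 and 59.7 CPM in Car6/Olr1 cells and 35.9, 26.1 and 26.0 CPM in Vsig4/Marco/Timd4 cells. In Gpnmb cells it was 1.91, 2.03, 3.21 and 3.4 CPM. T cell-like cells had 35.0, 54.6, 33.0 and 41.6 CPM, and B cell-like cells 49.1, 39.4, 28.7 and 38.5 CPM. In the library labelled CD45+ Tom+ the intervals of Car6/Olr1 (35.1 to 54.6) and T cell-like cells (22.3 to 47.1) overlapped. Dendritic-like cells had 50.2 and 60.8 CPM in the 2 Tom- libraries. Mast-like cells were lowest among the named classes, with 0.88 CPM over all libraries.

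Odc1, which makes the polyamine putrescine from ornithine, was present in every class and was not raised where Arg1 was. Its level was 79.9, 68.0, 103 and 76.6 CPM in Car6/Olr1 cells, 81.7, 88.7 and 80.7 CPM in Vsig4/Marco/Timd4 cells, and 119, 72.7, 107 and 95.3 CPM in Gpnmb cells. These ranges overlapped. The highest levels were in lymphatic endothelial-like cells, with 682 and 734 CPM in the 2 Tom+ libraries. Among the named classes T cell-like cells came next, with 450, 494, 408 and 458 CPM, then plasma cell-like cells with 297, 321 and 287 CPM. The Vwf/Lep cluster lay between these classes over all libraries, at 357 CPM (319 to 399). APC-like cells had 239 CPM over all libraries and, being numerous, held 64.2% and 61.1% of the Odc1 UMIs of the Tom- libraries.

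The promoters of Ass1 and Odc1, the members with an entry in the RefSeq table used here (GRCm38.p6), are shown because the former gene varied strongly among the macrophage-like kinds and the latter hardly. Each runs from 250 bases before to 50 after a RefSeq transcript start, which lies downstream of the GENCODE gene start given above, at chr2:31470020-31470319 (Ass1) and chr12:17544623-17544922 (Odc1), on the plus strand. Capitals mark GGGCGG, the GC box core, on either strand (CCGCCC when reversed), and CACGTG, the E-box bound by Myc and related factors, which reads the same on both strands. The motifs did not overlap each other.
Ass1: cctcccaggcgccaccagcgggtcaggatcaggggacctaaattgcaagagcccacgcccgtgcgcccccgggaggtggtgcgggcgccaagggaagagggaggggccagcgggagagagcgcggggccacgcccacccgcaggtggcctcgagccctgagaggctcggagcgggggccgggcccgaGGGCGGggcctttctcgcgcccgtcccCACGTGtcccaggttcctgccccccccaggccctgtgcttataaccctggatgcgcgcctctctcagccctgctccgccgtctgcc
Odc1: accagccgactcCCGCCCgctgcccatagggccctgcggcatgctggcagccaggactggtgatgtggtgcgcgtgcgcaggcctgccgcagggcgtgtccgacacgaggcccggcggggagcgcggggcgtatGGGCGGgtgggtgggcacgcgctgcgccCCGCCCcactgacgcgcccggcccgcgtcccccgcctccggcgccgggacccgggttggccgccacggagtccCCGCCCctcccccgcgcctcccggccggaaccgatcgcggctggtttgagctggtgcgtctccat
The Ass1 window had 1 GGGCGG and 1 CACGTG, and the Odc1 window had 4 GGGCGG and 0 CACGTG. Of 32851 promoters of the same length, 35.7% held GGGCGG and 7.15% held CACGTG. The GC content was 74.0% for Ass1 and 78.0% for Odc1, with 27 and 42 CG pairs. A match describes the letters of the window only.

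**Figure D2:**
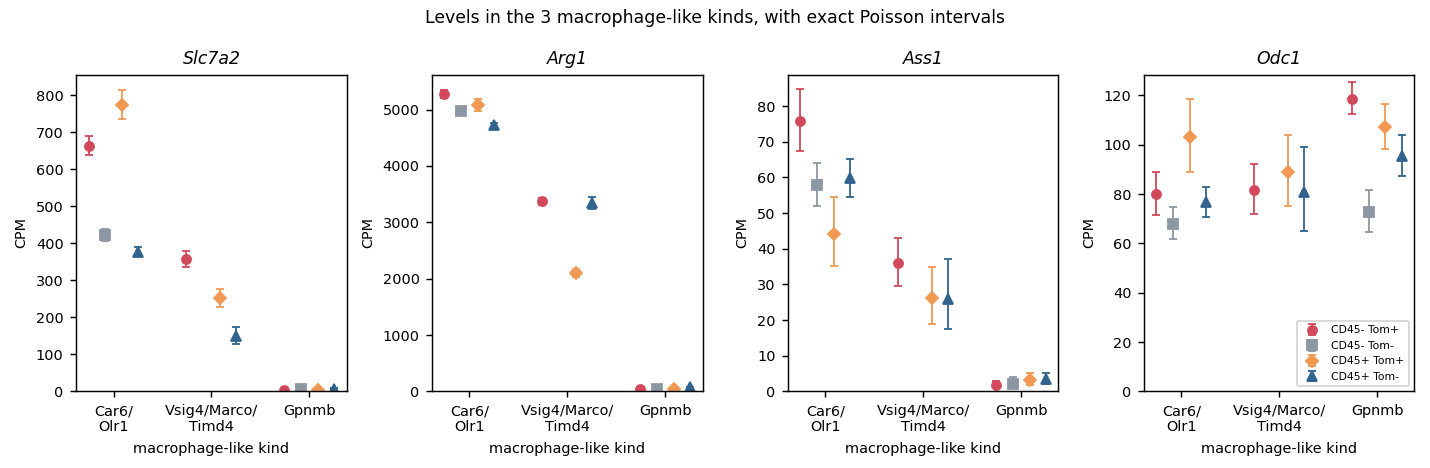
Levels (CPM, axes from 0) of Slc7a2, Arg1, Ass1 and Odc1 in the 3 macrophage-like kinds, 1 symbol per library, with exact 95% Poisson intervals as bars. Slc7a2, Arg1 and Ass1 stepped down from Car6/Olr1 to Vsig4/Marco/Timd4 to Gpnmb cells within each library that had all 3 kinds. The Odc1 levels of the kinds overlapped across libraries.

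Set against each other within a library, the kinds differed by far more than counting error in Arg1, Slc7a2 and Ass1. The log2 ratio of Car6/Olr1 to Gpnmb cells was 6.67, 7.06, 6.72 and 5.94 for Arg1, which is 102-, 133-, 105- and 61.4-fold. It was 7.16, 6.11, 7.39 and 5.58 for Slc7a2, and 5.31, 4.83, 3.78 and 4.14 for Ass1. For Odc1 it was -0.57, -0.10, -0.06 and -0.31. The intervals of the libraries labelled CD45- Tom- (-0.32 to 0.12) and CD45+ Tom+ (-0.30 to 0.18) held 0. Those of the libraries labelled CD45- Tom+ (-0.75 to -0.39) and CD45+ Tom- (-0.48 to -0.15) lay below 0. Of the 4 members reaching 20 CPM, Arg1, Slc7a2 and Ass1 were at least 4-fold higher in Car6/Olr1 cells in all 4 libraries. Of the 6864 genes that reached 20 CPM in a kind, 2.11% were. Slc7a2 and Ass1 reached it only through the kinds where they were high, so the count is a description. Arg2 and Nos2 did not reach it, although Arg2 was also higher, by 4.70-, 19.2-, 6.16- and 13.1-fold. Those ratios rest on 11, 1, 3 and 3 Arg2 UMIs in Gpnmb cells. Vsig4/Marco/Timd4 cells exceeded Gpnmb cells by log2 ratios of 6.02, 5.44 and 5.44 for Arg1, 6.27, 5.77 and 4.26 for Slc7a2 and 4.23, 3.02 and 2.94 for Ass1, where 1.53% of the genes were at least 4-fold higher in all 3 libraries. The 2 comparisons share the Gpnmb cells. Between Car6/Olr1 and Vsig4/Marco/Timd4 cells the log2 ratio was 0.65, 1.28 and 0.50 for Arg1 and 0.89, 1.62 and 1.32 for Slc7a2. For Ass1 it was 1.08, 0.75 and 1.20. Of the same 4 members, 0 were 4-fold higher or lower in all 3 libraries, where 0.233% of all genes were higher and 1.12% lower.

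Genes of the wider pathway were examined next. Of 44 further genes of arginine, urea cycle, polyamine, creatine, nitric oxide cofactor and proline metabolism found in the files, 25 reached 20 CPM in a kind. None of the 25 was 4-fold higher or lower between Car6/Olr1 and Gpnmb cells in all libraries, where 2.11% and 1.03% of all genes were. With such shares fewer than 1 of 25 genes would be called, so the count of 0 does not set the pathway apart. Their median log2 ratio was -0.05 against 0.10 over all 6864 genes. Between Vsig4/Marco/Timd4 and Gpnmb cells the median was -0.07 against 0.19, and 0 of 25 reached 4-fold, where 1.53% of all genes were higher and 0.321% lower. The examples that follow were chosen after their values were seen. Asl, the next enzyme after Ass1, was lower rather than higher in Car6/Olr1 than in Gpnmb cells, at 21.3, 18.5, 19.6 and 26.6 CPM against 37.8, 41.2, 28.3 and 36.8 CPM. Gatm, which uses arginine for creatine synthesis, was highest in Vsig4/Marco/Timd4 cells, at 282, 208 and 307 CPM, with 142, 150, 118 and 167 CPM in Car6/Olr1 and 75.9, 125, 86.7 and 96.9 CPM in Gpnmb cells. Gch1, which makes the cofactor of nitric oxide synthases, was at 63.6, 62.7, 72.7 and 64.6 CPM in Car6/Olr1 and 23.9, 27.0, 26.7 and 29.7 CPM in Gpnmb cells. Atp13a2, a lysosomal polyamine exporter, was at 87.3, 79.4, 87.5 and 91.7 CPM in the former and 177, 195, 189 and 189 CPM in the latter. Slc7a1, the general arginine transporter, was at 29.7, 33.6, 33.9 and 28.8 CPM in Car6/Olr1 and 17.5, 9.15, 18.9 and 12.2 CPM in Gpnmb cells. Otc and Cps1, the urea cycle enzymes of liver mitochondria, had 0 UMIs in the 3 kinds in every library.

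Lists of activation genes other than the members gave mixed pictures. Chil3, Il6 and Cd163 passed the 20 CPM minimum only through kinds where they were high, so the counts below are descriptions. Of 10 alternative activation genes, 1 (Chil3) was at least 4-fold higher and 1 (Clec10a) at least 4-fold lower in Car6/Olr1 than in Gpnmb cells in all libraries, where 2.11% and 1.03% of all genes were, and the median log2 ratio was -0.55 against 0.10 over all genes. Of 8 classical activation genes that reached 20 CPM, 2 (Il1b and Il6) were higher and 0 lower by that fold, with a median of 1.08. Mrc1, the mannose receptor commonly used as an M2 marker beside Arg1, was lowest where Arg1 was highest, at 116, 111, 146 and 131 CPM in Car6/Olr1 cells, 962, 1126 and 696 CPM in Vsig4/Marco/Timd4 cells and 568, 562, 541 and 532 CPM in Gpnmb cells. Chil3, a chitinase-like secreted protein, was at 398, 251, 332 and 301 CPM in Car6/Olr1 cells and 4.81, 4.83, 0.803 and 6.80 CPM in Gpnmb cells. Il1b, an inflammatory cytokine, was at 443, 512, 472 and 620 CPM in Car6/Olr1 cells and 24.3, 81.9, 29.1 and 88.3 CPM in Gpnmb cells. In Vsig4/Marco/Timd4 against Gpnmb cells, 3 of 10 alternative activation genes (Retnla, Chil3 and Cd163) and 0 of 8 classical genes were at least 4-fold higher in all 3 libraries, where 1.53% of all genes were, and 0 of either list were 4-fold lower, where 0.321% were. Against Vsig4/Marco/Timd4 cells, 4 of 10 alternative activation genes (Retnla, Mrc1, Cd163 and Clec10a) were at least 4-fold lower in Car6/Olr1 cells in all 3 libraries, where 1.12% of all genes were, and 1 of 8 classical genes (Il1b) was at least 4-fold higher, where 0.233% were.

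Finer clustering (resolution 2) split the Arg1-rich kinds by the members' levels, although these genes were not used to draw the clusters. The Car6/Olr1 cells divided into an Arg1/Spp1 cluster (717 cells over all libraries) with 6365 CPM of Arg1 and 698 CPM of Slc7a2, and an F10/Ccr2 cluster (384 cells) with 1939 CPM of Arg1 and 39.6 CPM of Slc7a2. Ass1 differed less between them, at 66.5 and 49.9 CPM. The Arg1/Spp1 cluster took 68.9%, 64.1%, 67.9% and 63.1% of the Car6/Olr1 cells. Most Vsig4/Marco/Timd4 cells (78.3%) joined a Marco/Vsig4 cluster (324 cells) with 3889 CPM of Arg1, 367 CPM of Slc7a2 and 38.6 CPM of Ass1. A further 21.7% (86 cells) joined an Fcna/Retnla cluster of 302 cells, most of the others of which came from the Gpnmb kind. There Arg1 was at 80.0, Slc7a2 at 8.22 and Ass1 at 3.65 CPM, close to the Mmp12/Gpnmb cluster (695 cells) with 53.4, 5.94 and 1.75 CPM. The Fcna/Retnla cluster had the highest level of Mrc1, at 1595 CPM, and of Clec10a, at 542 CPM, against 73.8 CPM of Mrc1 and 15 to 24.6 CPM of Clec10a across libraries in the Arg1/Spp1 cluster.

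**Figure D3:**
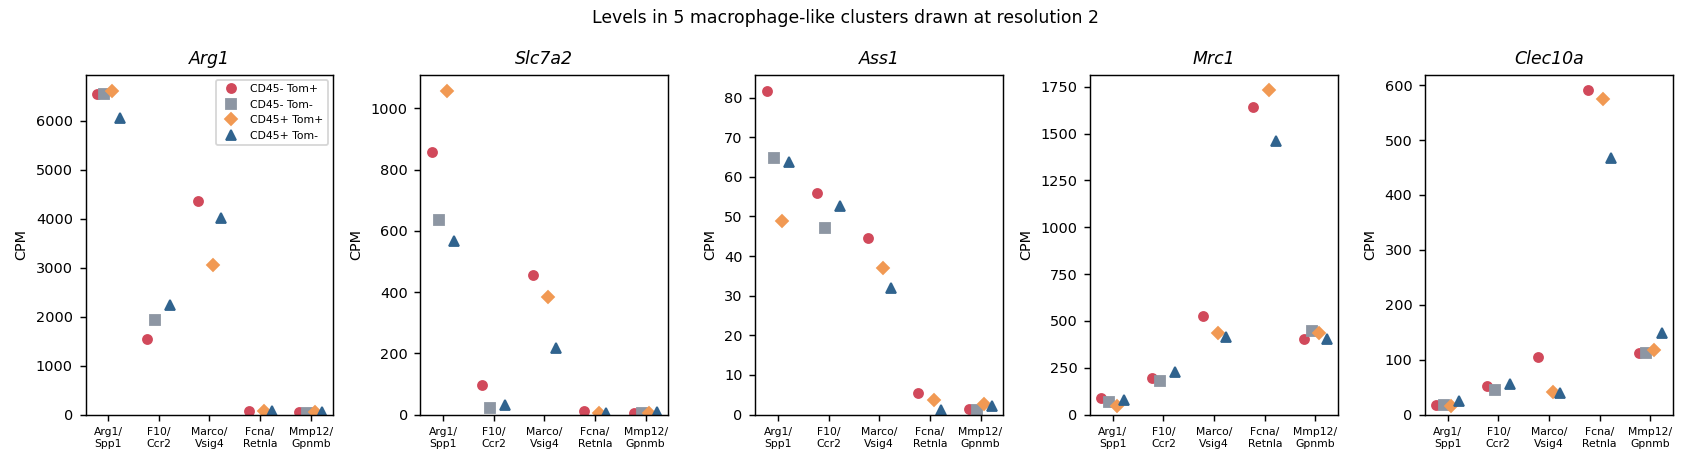
Levels (CPM, axes from 0) of Arg1, Slc7a2, Ass1, Mrc1 and Clec10a in the 5 macrophage-like clusters drawn at resolution 2, named by their leading genes, 1 symbol per library. The Arg1/Spp1 cluster was highest for Arg1, Slc7a2 and, pooled over libraries, Ass1, and the Fcna/Retnla cluster for Mrc1 and Clec10a.

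The same gradient was seen among single cells of a kind. Cells were ranked within each library by the share of their UMIs that were Arg1 and cut into 4 groups of near-equal size, which describes ranges of a measured value and not cell types. From the lowest to the highest group of Car6/Olr1 cells, Slc7a2 went from 86.8 to 1424, 47.2 to 1159, 22.9 to 1998 and 29.3 to 984 CPM. Ass1 went from 58.6 to 120, 57.9 to 73.0, 27.5 to 61.1 and 47.8 to 76.2 CPM, with overlapping intervals for the CD45- Tom- and the CD45+ Tom+ label. Odc1 went from 81.8 to 74.5, 82.4 to 65.7, 140 to 76.3 and 87.3 to 69.5 CPM. Mrc1 went the other way, from 169 to 60.8, 179 to 60.2, 406 to 15.3 and 259 to 55.2 CPM, as did Ccr2, a chemokine receptor of monocyte-derived cells, from 526 to 12.0, 720 to 116, 860 to 41.4 and 758 to 109 CPM. The median depth of the lowest and highest groups was 17778 and 23725, 17574 and 17303, 15994 and 18930, and 16807 and 17720 UMIs. In Vsig4/Marco/Timd4 cells of the 2 Tom+ libraries, Slc7a2 went from 11.9 to 827 and 9.41 to 500.1 CPM, and Mrc1 from 2057 to 363 and 2532 to 366 CPM. The lowest group there resembled the Fcna/Retnla cluster in its levels. In Car6/Olr1 cells the lowest group had more Ccr2, a leading gene of the F10/Ccr2 cluster, than the highest group. For both kinds, therefore, the ranking and the finer clustering are not independent descriptions.

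**Figure D4:**
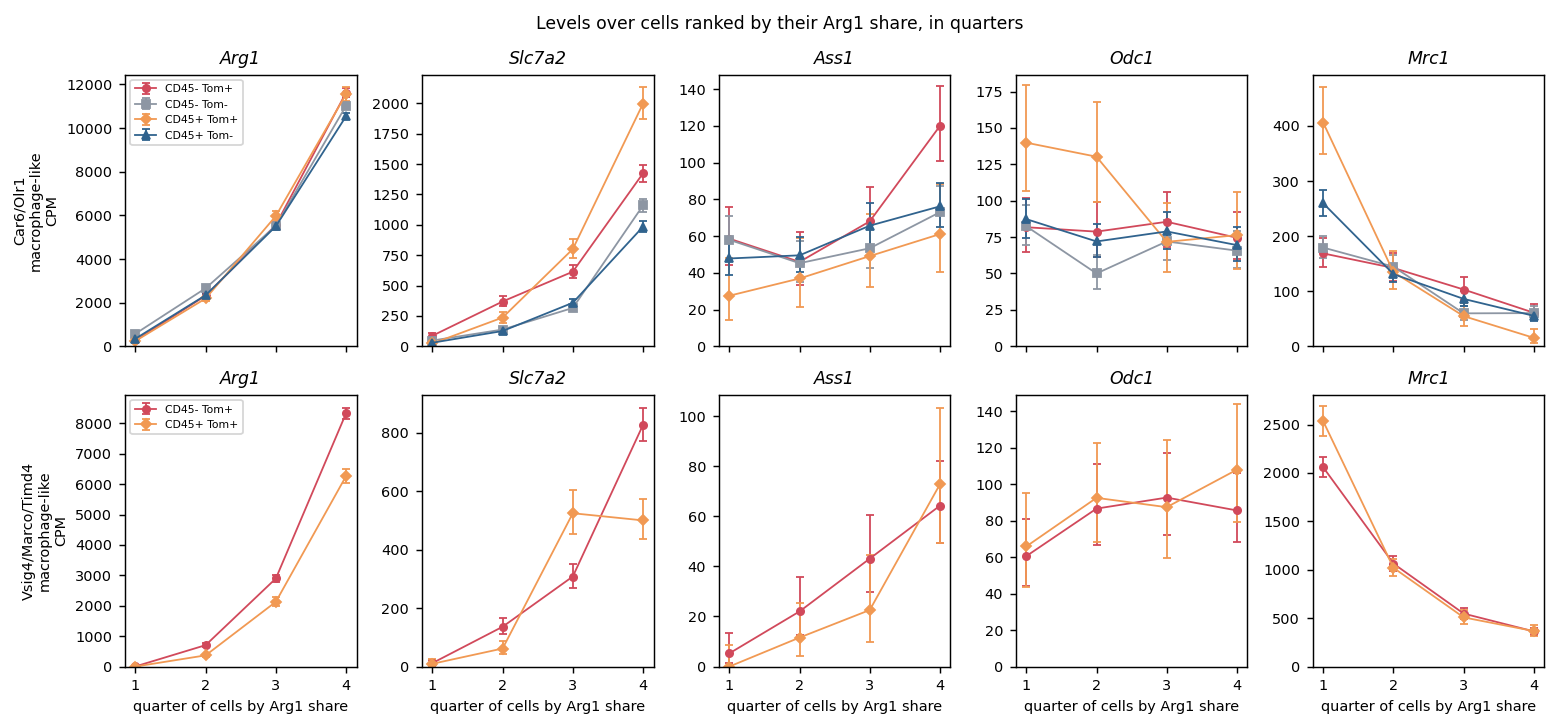
Levels (CPM, axes from 0) of Arg1, Slc7a2, Ass1, Odc1 and Mrc1 in 4 near-equal groups of cells ranked by their Arg1 share, for Car6/Olr1 cells (top) and Vsig4/Marco/Timd4 cells (bottom), 1 line per library with exact 95% Poisson intervals. In Car6/Olr1 cells of each library, Slc7a2 was higher and Mrc1 lower in the highest than in the lowest group.

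Over all classes, the genes whose levels were most like those of Arg1 marked the Arg1-rich kinds. Across 55 sums of a class in a library, the Pearson correlation of log levels with Arg1 was highest, among 10757 genes, for Naip1 (0.91), Car6 (0.90), Cd5l (0.88), Spp1 (0.88) and Ms4a8a (0.88). These sums share libraries and clusters, so the values are descriptions. Of the other members, Slc7a2 had 0.78 and Ass1 0.53, whereas Arg2 had 0.42, Nos2 -0.13 and Odc1 -0.43. The genes most like Nos2 were Exoc3l (0.97), Btnl9 (0.96) and Gpihbp1 (0.96), and the gene most like Arg2 was Hcar2 (0.92). For Slc7a2 they were Mlxipl (0.85) and Fn1 (0.85), for Ass1 AI504432 (0.74) and for Odc1 F2rl1 (0.70).

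The Tom+ and Tom- libraries were then compared within each kind, to ask whether members differed with p16 promoter activity. Slc7a2 was higher in the Tom+ library in Car6/Olr1 cells, by 0.65 on the log2 scale (0.57 to 0.73) in the CD45- pair (663 against 423 CPM) and 1.04 (0.95 to 1.13) in the CD45+ pair (774 against 377 CPM). It was also higher in Vsig4/Marco/Timd4 cells of the CD45+ pair, by 0.74 (0.48 to 1.003). The difference stood within single clusters of the finer clustering, at 0.43 (0.35 to 0.51) and 0.90 (0.811 to 0.996) in the Arg1/Spp1 cluster and 0.83 (0.60 to 1.06) in the CD45+ pair of the Marco/Vsig4 cluster. In the F10/Ccr2 cluster of the CD45- pair it was 2.14 (1.63 to 2.66), from 97.2 against 22.1 CPM. In Gpnmb cells, near background, the ratio was -0.40 (-1.12 to 0.37) and -0.77 (-1.56 to -0.01). Outside the macrophage-like kinds, in APC-like cells, it was 0.22 (-0.007 to 0.44) and 0.54 (0.21 to 0.84).

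Arg1 hardly differed between Tom+ and Tom- libraries in Car6/Olr1 cells, with log2 ratios of 0.08 (0.06 to 0.11) and 0.11 (0.07 to 0.14), whose sign turned under other processing. In Vsig4/Marco/Timd4 cells of the CD45+ pair it was -0.67 (-0.74 to -0.61), from 2096 against 3342 CPM. There the Fcna/Retnla cells, low in Arg1, were part of the kind, and within the Marco/Vsig4 cluster the ratio was -0.39 (-0.46 to -0.33). Ass1 in Car6/Olr1 cells had opposite signs in the 2 pairs, 0.39 (0.17 to 0.61) and -0.44 (-0.79 to -0.10). Odc1 was higher in the Tom+ library in Car6/Olr1 cells, by 0.23 (0.02 to 0.44) and 0.43 (0.19 to 0.66). In Gpnmb cells it was higher by 0.71 (0.52 to 0.90) and 0.17 (-0.01 to 0.34). Outside these kinds Odc1 was also higher in B cell-like cells, by 0.63 (0.34 to 0.93) and 0.45 (0.07 to 0.81). In the Cxcl13/Cxcl5 cluster the ratio was 0.72 and 0.33. It was -0.14 and -0.17 in T cell-like and -0.01 and -0.11 in APC-like cells, with intervals that held 0. None of the 4 members with at least 20 CPM in a kind reached 2-fold in both pairs of Car6/Olr1 or of Gpnmb cells. Of all genes, 0.583% were at least 2-fold higher and 0.437% lower in both pairs of Car6/Olr1 cells. In both pairs of Gpnmb cells 0.51% were higher and 0.51% lower. In the single pair of Vsig4/Marco/Timd4 cells none of these 4 members reached 2-fold either, where 2.49% of genes were higher and 1.75% lower. None of the 25 pathway genes did so in any kind. Without replicates, a difference between Tom+ and Tom- and one between these particular libraries cannot be told apart.

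**Figure D5:**
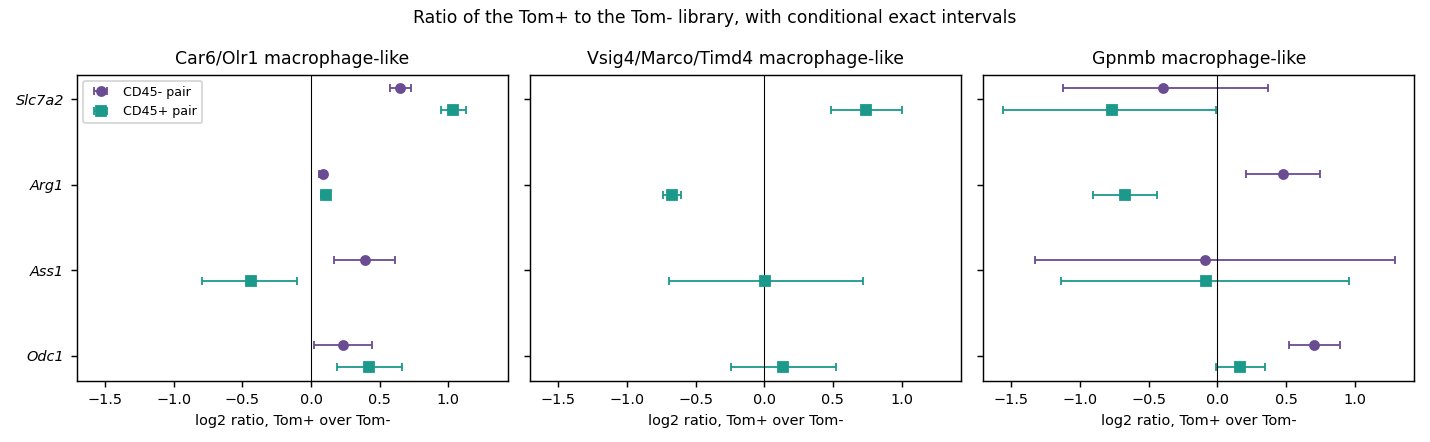
Log2 ratio of the Tom+ to the Tom- library for Slc7a2, Arg1, Ass1 and Odc1 in the 3 macrophage-like kinds, circles for the CD45- pair and squares for the CD45+ pair, with conditional exact 95% intervals as bars and a line at 0. Slc7a2 lay above 0 in Car6/Olr1 cells in both pairs, at 0.65 and 1.04, and Ass1 lay on opposite sides of 0.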

How the data were processed

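For each library the authors deposited a matrix of whole-number UMI counts per gene and barcode, made with Cell Ranger 3.0.2 on mm10, without normalization. The filter of the study was used, which keeps barcodes between 1000 and 7000 genes whose mitochondrial UMIs are under 8%. Scrublet (scanpy 1.11.5) removed 0.8% of cells per 1000 barcodes. Cells were clustered on 2000 variable genes, 30 principal components and 15 neighbors (Leiden, resolution 1), leaving out the 6 genes, the pathway genes and tdTomato. UMIs were summed per class and library (at least 50 cells) and scaled to CPM, with exact Poisson, binomial or conditional intervals. Ratios between kinds were counted at 4-fold, and between Tom+ and Tom- libraries at 2-fold, over 6864 genes with at least 20 CPM in a kind. The Wilcoxon test over cells used by the authors was not run. The members, gene lists and tests were chosen with earlier results of these data known, and the thresholds for naming clusters after seeing the data. Text names the members, their 5 most similar genes, and genes of fixed lists. The ratio computation was tested on simulated data. Other settings of cell filter, doublets, clustering, depth and denominator were tried.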

Additional observations from a re-analysis of the deposited data

Results flagged for a closer look

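Between Tom+ and Tom- libraries, 3 members moved in opposite directions in different groups under the same contrast, each on 1 library per side, so these differences were not tested. For Arg1 in Gpnmb macrophage-like cells, the log2 ratio of Tom+ to Tom- was 0.47 in the CD45- pair and -0.67 in the CD45+ pair. The levels were low, at 37.4 to 76.9 CPM. Within the Mmp12/Gpnmb cluster of the finer clustering the ratio was 0.46 and -0.015. In the CD45+ pair, Arg1 was 0.11 in Car6/Olr1 cells and -0.67 in both Vsig4/Marco/Timd4 and Gpnmb cells. For Ass1 in Car6/Olr1 cells it was 0.39 in the CD45- pair and -0.44 in the CD45+ pair. Slc7a2 in the CD45+ pair was 1.04 in Car6/Olr1 and 0.74 in Vsig4/Marco/Timd4 cells and -0.77 in Gpnmb cells, whose levels were 4.62 and 7.87 CPM.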

How the results depend on the processing

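The Arg1 level in Car6/Olr1 macrophage-like cells, 4718 to 5284 CPM above, was 5364, 5448, 4736 and 5076 CPM with the looser cell filter, 5847, 5700, 6043 and 5305 CPM with doublets kept, and 6237, 5774, 6192 and 5357 CPM with 4000 variable genes. It was 4982, 4867, 4901 and 4631 CPM in thinned cells. Clustering at resolution 2 gave 5213 CPM (CD45- Tom+) and 4657 CPM (CD45+ Tom-), the mean of per-cell CPM 4869, 4863 and 4815 CPM in the first 3 libraries, and leaving out immunoglobulin UMIs 5434 and 5261 CPM in the Tom+ libraries. Without cells whose barcode recurred in another library it was 5068, 5097 and 5208 CPM in the first 3 libraries. The log2 ratio of Arg1 between Tom+ and Tom- Car6/Olr1 cells turned under the looser filter, to -0.022 (CD45- pair) and -0.10 (CD45+ pair), and in the CD45- pair without recurring barcodes, to -0.0081. In the CD45- pair it was 0.037 with doublets kept, 0.11 with 4000 variable genes, 0.034 when thinned, 0.0017 as a mean of per-cell CPM and 0.12 without immunoglobulin UMIs. In the CD45+ pair these were 0.19 with doublets, 0.21 with 4000 genes, 0.041 as per-cell mean, 0.15 without immunoglobulin UMIs and 0.14 without recurring barcodes. The log2 ratios of Slc7a2 and Odc1 in Car6/Olr1 cells kept their sign in 8 of 8 alternatives in both pairs, with Slc7a2 between 0.36 and 0.69 and between 0.44 and 1.16. Other ratios that turned were Ass1 in Car6/Olr1 cells (CD45- pair), to -0.059 when thinned, and in Gpnmb cells Arg1 to -0.086 (CD45- pair, 4000 genes), 0.22 and 0.14 (CD45+ pair, looser filter and thinned) and Slc7a2 to 1.25 (CD45+ pair, thinned). Arg1 also turned in T cell-like cells, to 0.017 (looser filter) and 0.37 (resolution 2), and in mesothelial-like cells, to -0.75 (looser filter) and -0.078 (doublets kept). Apart from Arg1 in Car6/Olr1 cells, 32 member levels in the 3 kinds reached 20 CPM, which gave 252 values under the alternatives. Of these, 15 moved by over 1.5 times, among them Arg1 in Gpnmb cells with 4000 genes, to 74.6, 94.2 and 135 CPM in the last 3 libraries. Lower levels, such as Slc7a2 and Ass1 in Gpnmb cells, were not in this count. Over the kinds and named classes, 113 of 242 levels lay outside their interval when thinned. Cells changed kind under the looser filter and with 4000 genes, where 11.6% of the Vsig4/Marco/Timd4 cells joined the Gpnmb kind and 82.9% of the Car6/Olr1 cells kept theirs. Beyond these moves, the cause was not tested. No paired analysis was possible because each group was 1 library.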

Other observations

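In small clusters, chosen after their values were seen, Arg2 was at 34.8 CPM in 28 cells led by Gpx5 and Spag11b, with a UMI in 85.7% of them, and these cells held 28.6% of the Arg2 UMIs in each of the 2 Tom+ libraries. Arg1 was at 532 CPM and Slc7a2 at 116 CPM in 55 cells of the Vwf/Lep cluster of the library labelled CD45+ Tom+, with 75% and 63.6% of those UMIs in the top 2% of cells.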
